A study of Caenorhabditis elegans with 24 samples.

Results

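The protease genes described here are the Caenorhabditis elegans genes whose names begin with asp- (aspartyl proteases), cpr- (cathepsin B-related cysteine proteases) or nas- (nematode astacins), each followed by a digit. The poly(A) RNA table held 49 of them among 45642 genes, 6 asp, 6 cpr and 37 nas, and the J2-IP table held 13 among 8783, all 6 asp, 5 cpr and 2 nas. The tested worms carried tdp-1(ok803), a deletion allele that the study regarded as null, of the gene for the worm ortholog of the RNA-binding protein TDP-43. They were set against wild type, the strain labelled N2-CGC B, and no other allele or agent was named for either genotype. Poly(A) RNA came from whole L4 larvae, the last larval stage, grown at 20°C, with 3 libraries labelled tdp-1(ok803) and 3 wild-type libraries. The J2-IP, an immunoprecipitation from whole-worm lysate with the J2 antibody against double-stranded RNA, came from young adults grown at 15°C, again with 3 libraries per genotype, beside 1 input RNA library each. All values are from whole animals, so fewer cells of a type and less RNA per cell cannot be told apart.

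Aspartyl proteases and cathepsins B both work in acid compartments. In the worm many of them are made in the intestine, where they digest the bacterial food in the gut lumen or break down protein in lysosomes. Astacins are secreted zinc metalloproteases, made as inactive precursors. Different astacins act at the pharynx, in the epidermis when the old cuticle is shed at a molt, and on collagen and matrix precursors.

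The poly(A) libraries held 65546397 to 107297985 reads. The first principal component of log2(normalized count + 1) accounted for 55.6% of the variance, and replicate 1 of each genotype lay far from replicates 2 and 3 along it. The tdp-1 gene had 915, 3542 and 3478 normalized counts in libraries labelled tdp-1(ok803), against 2156, 3501 and 4322 in wild type, so replicate 2 was not lower. Reads summed over a whole gene cannot tell whether the deleted stretch is covered, so all directions below rest on the labels. In the J2-IP, tdp-1 stood at 53, 61 and 50 in the mutant libraries and at 27, 27 and 25 in wild type, while its input values were 12 in tdp-1(ok803) and 38 in wild type. Levels of different genes are not compared with each other, since no gene lengths were used.

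In L4 poly(A) RNA the aspartyl protease messages separated libraries by replicate number more than by genotype. Replicate 1 held the highest value of its genotype for 5 of the 6 asp genes. The intestinal aspartyl protease asp-1 had 790694, 181064 and 202113 normalized counts in replicates 1 to 3 labelled tdp-1(ok803), against 821321, 298119 and 362159 in wild type. For asp-6 the values were 322521, 78759 and 93560 in libraries labelled tdp-1(ok803), against 360802, 111070 and 153325 in wild type. In both genes the mutant and wild-type replicate 1 libraries lay close together, and all 4 other libraries lay under them.

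The gene asp-5, which lies beside asp-6 in the RefSeq annotation with only F21F8.4 (also an aspartyl protease by its RefSeq name) between them, had the same shape. It had 204978, 58065 and 63698 normalized counts in libraries labelled tdp-1(ok803) and 202040, 73871 and 93973 in wild type. Replicate 1 over the mean of replicates 2 and 3 was 4.13-fold in tdp-1(ok803) and 2.49-fold in wild type for asp-1, 3.74-fold and 2.73-fold for asp-6, and 3.37-fold and 2.41-fold for asp-5, with 1 added to each value. These 3 genes had the largest such ratios of their family, and asp-2 followed with 2.33-fold in tdp-1(ok803) and 2.22-fold in wild type.

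The lysosomal cathepsin D-like proteases asp-3 and asp-4, known from worms for their part in the death of necrotic neurons, went separate ways. For asp-3 libraries labelled tdp-1(ok803) had 207722, 85109 and 95588 normalized counts, against 218702, 142550 and 200626 in wild type, so replicate 1 stood out in the mutant more than in wild type (2.299-fold against 1.275-fold). For asp-4 the values were 27887, 50965 and 50942 in libraries labelled tdp-1(ok803), against 42756, 45741 and 53284 in wild type. Replicate 1 was the lowest of its genotype for asp-4, the reverse of the other 5 asp genes.

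Among the cathepsin B genes the spread between replicates was wider still. The gut cysteine protease cpr-1 had 159737, 12035 and 14574 normalized counts in libraries labelled tdp-1(ok803), against 153787, 29147 and 38582 in wild type. Replicate 1 thus stood 12.01-fold over the other mutant libraries and 4.54-fold over the other wild-type libraries. The values of cpr-4 were 98845, 8915 and 10629 in libraries labelled tdp-1(ok803), against 96377, 16955 and 16987 in wild type. Those of cpr-5 were 93657, 7469 and 9653 in libraries labelled tdp-1(ok803), against 75759, 12003 and 17432 in wild type. In all of these 3 genes the genotypes were alike in replicate 1 and the mutant was the lower in replicates 2 and 3.

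The other cathepsin B genes did not share this pattern at a level that can be read. For cpr-6 libraries labelled tdp-1(ok803) had 106840, 105510 and 100226 normalized counts, against 160022, 126416 and 154334 in wild type. Replicate 1 was within 1.14-fold of the mean of the others in both genotypes, and all 3 mutant libraries lay under all 3 wild-type libraries. For cpr-3 the values were 2169, 3111 and 3218 in libraries labelled tdp-1(ok803), against 2566, 2088 and 1833 in wild type, with replicate 1 lowest in the mutant and highest in wild type. Few reads came from cpr-2, with 100.2, 0 and 12.7 normalized counts in libraries labelled tdp-1(ok803) and 26.7, 0 and 0 in wild type. Its ratios are therefore set by a few reads and by the added 1, since the limit that a count of 0 allows was 2.36 to 4.02 normalized counts across the libraries.

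**Figure D1:**
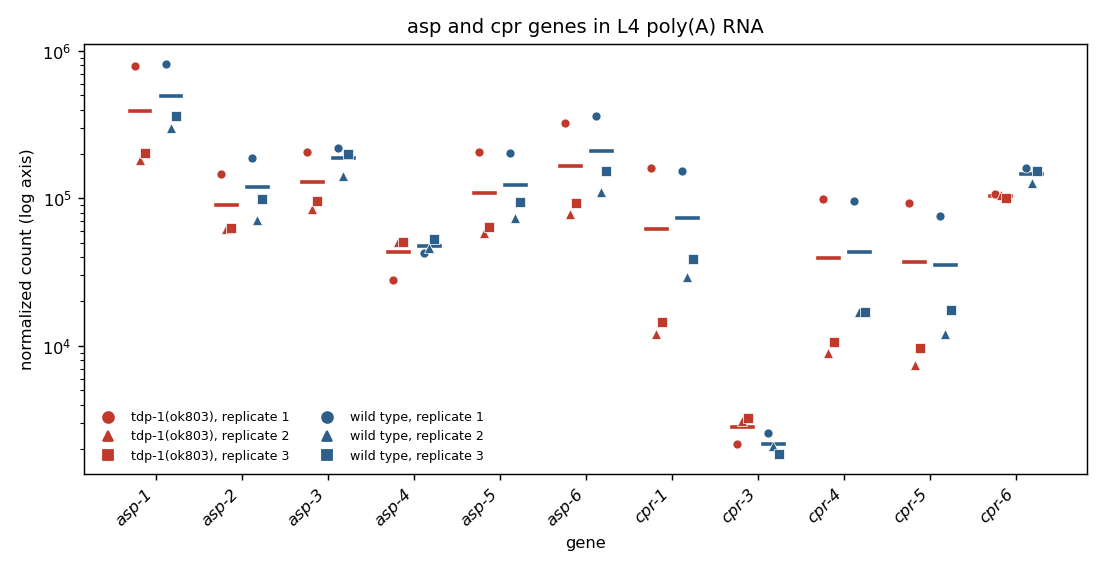
Normalized counts (log axis) of the asp and cpr genes other than cpr-2 in L4 poly(A) RNA, with tdp-1(ok803) left of wild type for each gene, the marker shape giving the replicate number and the bar the mean of 3 libraries. Replicate 1 (circles) stands over 2-fold above the mean of the other replicates in both genotypes for asp-1, asp-2, asp-5, asp-6, cpr-1, cpr-4 and cpr-5, and not for asp-3, asp-4, cpr-3 and cpr-6.

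Counted by a fixed limit, 8 of the 12 asp and cpr genes were over 2-fold higher in replicate 1 than in the mean of replicates 2 and 3 in both genotypes, namely asp-1, asp-2, asp-5, asp-6, cpr-1, cpr-2, cpr-4 and cpr-5, and 0 were over 2-fold lower. Of all 15807 genes tested, 5.68% were higher and 9.58% lower by that limit. The gene cpr-2 had at least 10 normalized counts in only 3 libraries, replicate 1 of both genotypes among them. It was therefore tested only because replicate 1 was high, and its place in this count is not read. The 6 asp genes together took 1.90%, 0.745% and 0.810% of all normalized counts in replicates 1 to 3 labelled tdp-1(ok803), against 2.18%, 1.03% and 1.095% in wild type. The 6 cpr genes took 0.516%, 0.198% and 0.197% in libraries labelled tdp-1(ok803), against 0.580%, 0.259% and 0.261% in wild type. In each replicate and both families the mutant library held the smaller share.

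The astacins did not move as a block with replicate number. Of the 37 nas genes 31 passed the filter of at least 10 normalized counts in at least 3 libraries. By the same 2-fold limit 3 were higher in replicate 1 in both genotypes, nas-9, nas-10 and nas-25, and 4 were lower, nas-20, nas-21, nas-22 and nas-27. Reads of nas-10 were few, at 23.1, 13.2 and 2.11 normalized counts in libraries labelled tdp-1(ok803), against 18.8, 7.26 and 1.34 in wild type. It passed the filter only with replicate 1 of both genotypes, so its place in this count is not read. Summed over the family the astacins took 0.0475%, 0.0476% and 0.0473% of the mutant libraries, against 0.04495%, 0.0463% and 0.0360% of the wild-type libraries. Their summed values were 42415, 32966 and 33180 normalized counts in libraries labelled tdp-1(ok803), against 37874, 33384 and 31649 in wild type. The 3 astacins with the largest ratios were nas-25, nas-27 and nas-20.

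The gene nas-25 had 128.6, 14.2 and 13.7 normalized counts in libraries labelled tdp-1(ok803), against 64.4, 10.9 and 4.02 in wild type. In the other direction nas-27 had 454, 1256 and 1248 in libraries labelled tdp-1(ok803), against 578, 2890 and 3176 in wild type. For nas-20 the values were 60.3, 136.2 and 229 in libraries labelled tdp-1(ok803), against 80.9, 482 and 138 in wild type. The gene nas-20 lies next to nas-21 and nas-22 in the RefSeq annotation, and all 3 were lower in replicate 1, which stood at 0.260 to 0.334 of the other replicates in tdp-1(ok803) and 0.263 to 0.4565 in wild type. How the authors' counting treated reads that match several similar genes is not given in the sources used here.

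**Figure D2:**
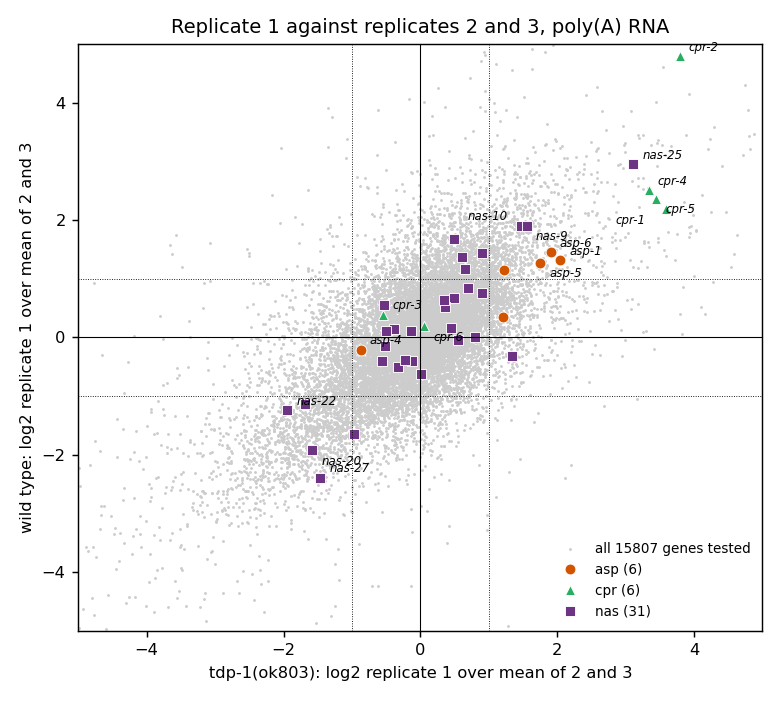
Log2 ratio of replicate 1 over the mean of replicates 2 and 3 in L4 poly(A) RNA, tdp-1(ok803) on the horizontal and wild type on the vertical axis, for the 6 asp, 6 cpr and 31 nas genes tested and, in grey, all 15807 genes tested (those beyond 5 on either axis are not drawn). Dotted lines mark the 2-fold limit, and 8 asp and cpr genes and 3 nas genes lie past it at the upper right, against 4 nas genes at the lower left. Of those at the upper right, cpr-2 and nas-10 passed the filter only with replicate 1 of both genotypes and are not read.

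Other gene lists also differed between replicate 1 and the rest, and their part in the protease pattern was not tested. Of 18 intestine and lysosome markers tested, 2 were over 2-fold higher in replicate 1 in both genotypes, asah-1 and lys-4, and 0 lower, and their summed level was 594070, 321333 and 324523 normalized counts in libraries labelled tdp-1(ok803), against 513382, 385405 and 428165 in wild type. A list of 11 other gut and lysosomal genes tested held proteases, such as the cathepsin L gene cpl-1, and the cystatin protease inhibitor genes cpi-1 and cpi-2. In this list 1 was higher, tag-196, and 1 lower, the inhibitor gene cpi-1. Among 21 molting cycle genes 7 were higher and 0 lower, and among 7 pharynx genes 1 was higher and 0 lower. Among 14 sperm genes 8 were lower, and among 14 yolk and oocyte genes 2 were lower, with 0 higher in either list. Summed sperm levels ranged over 14398 to 27961 normalized counts in libraries labelled tdp-1(ok803) and 13568 to 58940 in wild type. Listed at 0 in all libraries were msp-31 and msp-45 of the sperm list, and bli-1, bli-2 and mlt-7 of the molting list.

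Astacins of known function were read in every library. The genes nas-36 and nas-37, both needed to shed the cuticle, differed in pattern. For nas-37 libraries labelled tdp-1(ok803) had 11494, 6342 and 5914 normalized counts, against 8558, 2956 and 3365 in wild type, the mutant being higher in each replicate. For nas-36 the values were 1819, 2644 and 2750 in libraries labelled tdp-1(ok803), against 2099, 3498 and 2084 in wild type, and the genotypes overlapped. The gene nas-38, which acts in the quiescence that goes with a molt, had 2041, 2202 and 2275 normalized counts in libraries labelled tdp-1(ok803), against 2440, 2368 and 2146 in wild type. The ratio of its highest to its lowest library was the smallest among nas-6, nas-7, nas-36, nas-37, nas-38 and nas-39.

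The pharyngeal astacins nas-6 and nas-7, which act together in forming the grinder that crushes bacteria, showed no step between genotypes. In the libraries labelled tdp-1(ok803) nas-6 had 743, 408 and 449 normalized counts, against 544, 571 and 519 in wild type. In the libraries labelled tdp-1(ok803) nas-7 had 2091, 3040 and 2917 normalized counts, against 3319, 3636 and 2497 in wild type. The mutant was the higher in 1 of 3 replicate pairs for each of these genes. The tolloid-like astacin nas-39 had 741, 364 and 430 normalized counts in libraries labelled tdp-1(ok803) and 730, 440 and 425 in wild type, high in replicate 1 of both genotypes.

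Without a role assigned here, nas-11 and nas-15 followed nas-37 in mean normalized count, a value not corrected for gene length. The values of nas-11 were 4946, 3727 and 3329 in libraries labelled tdp-1(ok803), against 4681, 2685 and 3179 in wild type, the mutant being higher in each pair. Those of nas-15 were 5288, 1736 and 2427 in libraries labelled tdp-1(ok803), against 2745, 2492 and 4387 in wild type, in which the mutant was higher in replicate 1 and lower in replicates 2 and 3. At the other end, 6 astacins did not reach the filter: nas-2 and nas-16 were at 0 in all 6 libraries, and nas-17, nas-18, nas-19 and nas-40 had at most 6.70 normalized counts in any library. The genes nas-16, nas-17, nas-18 and nas-19 are neighbours in the RefSeq annotation.

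**Figure D3:**
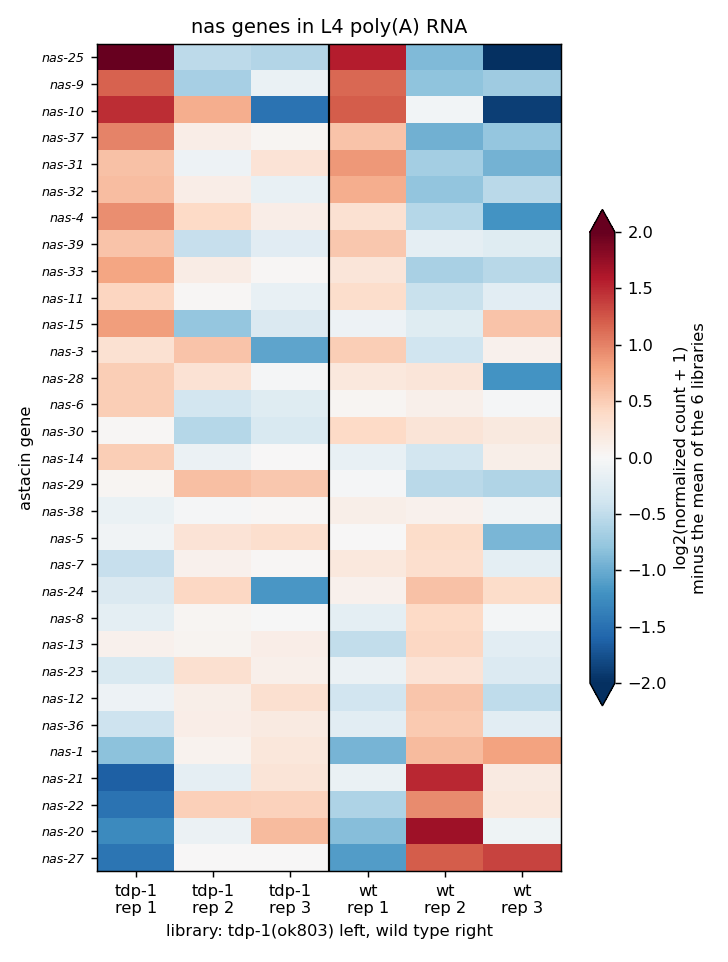
Log2(normalized count + 1) of the 31 astacin genes tested in L4 poly(A) RNA, each minus its mean over the 6 libraries, with tdp-1(ok803) libraries left and wild-type libraries right and genes ordered by the ratio of replicate 1 to the others. Genes from nas-25 at the top to nas-27 at the bottom run from high to low in replicate 1 of both genotypes, and nas-4, nas-29 and nas-37 are redder in replicates 2 and 3 of tdp-1(ok803) than in those of wild type.

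The comparison of genotypes in L4 poly(A) RNA asked which transcripts change in abundance when TDP-1 is absent. Over all 3 replicates 0 of the 43 protease genes tested passed an adjusted p under 0.05 (limma on log2(normalized count + 1), Benjamini-Hochberg), against 0.0% of all 15807 genes. At an unadjusted p under 0.05 stood 1 of the 43, nas-29, beside 2.61% of all genes. On the recovered reads edgeR and DESeq2 also called 0 protease genes, and 0 and 17 genes of the whole table. DESeq2 gave a p for 40 of the 43, and none for cpr-1, cpr-4 and cpr-5. The spread between replicate 1 and the others enters the error of this comparison.

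The 6 protease genes with the lowest p were nas-29, nas-30, nas-4, cpr-6, nas-37 and nas-33. The astacin nas-29 had 596, 881 and 847 normalized counts in libraries labelled tdp-1(ok803), against 569, 397 and 381 in wild type, a log2 fold change of 0.79 (SE 0.31, limma adjusted p = 1.00). The groups did not overlap, though replicate 1 of the 2 genotypes differed by only 0.07 on the log2 scale. The astacin nas-30 had 1663, 1110 and 1325 in libraries labelled tdp-1(ok803), against 2157, 1969 and 1876 in wild type, with a log2 fold change of -0.57 (SE 0.25). These groups did not overlap either.

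For nas-4 the values were 1199, 833 and 687 normalized counts in libraries labelled tdp-1(ok803), against 778, 422 and 275 in wild type, a log2 fold change of 0.97 (SE 0.43). For nas-33 they were 354, 229 and 208 in libraries labelled tdp-1(ok803), against 243, 131 and 139 in wild type, a log2 fold change of 0.64 (SE 0.40). Both genes were higher in the mutant within each replicate number while the groups overlapped. The log2 fold change was -0.49 (SE 0.24) for cpr-6 and 0.78 (SE 0.46) for nas-37. The limma adjusted p was 1.00 for all 6 genes.

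The 12 asp and cpr genes are called gut proteases here as a short name. It also covers lysosomal members such as asp-3 and asp-4, and the tissue of each gene was not read. Within a replicate number the gut proteases and the astacins differed in how the genotypes compared, a description with no test. The median log2 ratio of tdp-1(ok803) over wild type of the 12 asp and cpr genes was -0.06 in replicate 1, -0.42 in replicate 2 and -0.66 in replicate 3. That of the 31 astacins was 0.02, -0.10 and 0.34, and that of all genes tested -0.04, -0.05 and 0.00. In replicate 3, 10 of 12 gut proteases were lower in the mutant, against 8 of 31 astacins and 7874 of 15807 genes. In replicate 2, 9 of 12 gut proteases, 17 of 31 astacins and 8517 of 15807 genes were lower. In replicate 1, 7 of 12 gut proteases, 15 of 31 astacins and 8343 of 15807 genes were lower.

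All 3 replicate pairs were lower in the mutant for 5 gut proteases, asp-1, asp-2, asp-3, asp-6 and cpr-6, and for 3 astacins, nas-24, nas-27 and nas-30, against 18.2% of all genes. All 3 pairs were higher in the mutant for 0 gut proteases and for 9 astacins, nas-4, nas-9, nas-10, nas-11, nas-25, nas-28, nas-29, nas-33 and nas-37, against 15.2% of all genes. In replicate 3 both values of nas-10 lay under the limit that a count of 0 allows, so its direction there is not read. The groups did not overlap for cpr-6 and nas-30, with the mutant lower (3.49% of all genes), and for nas-29, with the mutant higher (4.43% of all genes). Over all 3 replicates the median log2 fold change was -0.43 for the gut proteases and 0.08 for the astacins, against -0.02 for all genes tested. Of the gut proteases 10 of 12 had a fold change below 0, and of the astacins 15 of 31, against 8215 of 15807 genes.

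**Figure D4:**
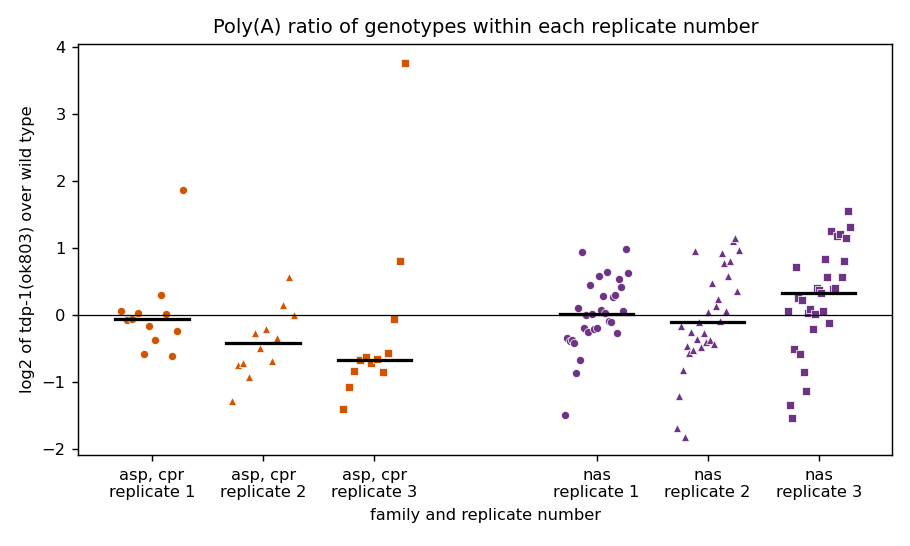
Log2 ratio of tdp-1(ok803) over wild type in L4 poly(A) RNA within each replicate number, for the 12 asp and cpr genes (left, orange) and the 31 nas genes (right, purple), with the median as a black bar. The median of asp and cpr genes is -0.06, -0.42 and -0.66 in replicates 1 to 3, and that of nas genes 0.02, -0.10 and 0.34; the highest 2 points at left are cpr-2, which had few reads.

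With replicates 2 and 3 alone 5 of 41 protease genes tested passed the threshold, beside 4.48% of all genes. Of all genes 2.19% were higher and 2.3% lower. The study names 2 independent poly(A) replicates where 3 are deposited, so whether replicates 2 and 3 are independent is not known. The SE and adjusted p of this fit measure only the spread between these libraries. The astacins nas-29 (log2 fold change 1.15, SE 0.22, limma adjusted p = 0.0281) and nas-37 (0.96, SE 0.17, limma adjusted p = 0.0224) rose. The gut protease genes cpr-1 (-1.34, SE 0.21, limma adjusted p = 0.0153) and cpr-4 (-0.80, SE 0.17, limma adjusted p = 0.0389) and the astacin nas-27 (-1.27, SE 0.17, limma adjusted p = 0.0113) fell. In replicate 1, left out here, the ratio of tdp-1(ok803) over wild type on the log2 scale was 0.07 for nas-29, 0.43 for nas-37, 0.05 for cpr-1, 0.04 for cpr-4 and -0.35 for nas-27. With a term for each replicate number, 0 protease genes and 1 gene of the whole table (0.00633%) passed, and 7 protease genes had an unadjusted p under 0.05, against 10.7% of all genes.

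Other lists moved between genotypes in the same libraries, and their part in the protease values was not tested. Summed yolk and oocyte genes had 104768, 129493 and 161788 normalized counts in libraries labelled tdp-1(ok803), against 198833, 508175 and 558609 in wild type. Summed intestine and lysosome markers had 594070, 321333 and 324523 normalized counts in libraries labelled tdp-1(ok803), against 513382, 385405 and 428165 in wild type, so the mutant was higher in replicate 1 and lower in replicates 2 and 3. The 14 sperm genes had a median log2 fold change of -0.62, and 7 of them were lower in all 3 pairs. For the intestine and lysosome markers the median log2 fold change over 3 replicates was -0.25, and that of 21 molting cycle genes was 0.29. The other gut and lysosomal protease genes, with the inhibitor genes cpi-1 and cpi-2 among them, had a median of -0.02. Of these 4 of 11 were lower in all 3 pairs and 1 higher, and 0 of 11 passed the threshold. Of the 3 astacins that carry other names, dpy-31 and toh-1 were tested and 0 passed, and hch-1 was near 0.

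The J2-IP asked which transcripts were recovered in different amounts with the antibody when TDP-1 is absent. The gene cpr-3 reached the filter only through its tdp-1(ok803) libraries, so its values are given without a test and it is left out of the counts. Of the other 12 protease genes 9 passed the study's thresholds, a p below 0.05 with an adjusted p below 0.1 (limma, Benjamini-Hochberg), all of them higher in tdp-1(ok803). Of all 7058 genes tested 55.8% passed, 49.8% higher and 5.99% lower. Each of the 9 was also higher in all 3 replicate pairs, as were 57.4% of all genes. The median log2 fold change was 0.67 for the 10 asp and cpr genes, against 0.25 for all genes tested.

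The aspartyl proteases rose except asp-4. For asp-1 libraries labelled tdp-1(ok803) had 1348, 1181 and 1118 normalized counts, against 783, 747 and 804 in wild type (log2 fold change 0.64, SE 0.09, limma adjusted p = 0.00101). For asp-6 they had 1060, 989 and 1020, against 650, 631 and 619 in wild type (0.69, SE 0.06, limma adjusted p = 0.000257). In contrast to the poly(A) libraries, replicate 1 was within 1.25-fold of the mean of replicates 2 and 3 for each asp gene in both genotypes.

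For asp-3 the values were 414, 356 and 380 in libraries labelled tdp-1(ok803) and 211, 196 and 205 in wild type (log2 fold change 0.90, SE 0.08, limma adjusted p = 0.000182). For asp-5 they were 86, 80 and 68 in libraries labelled tdp-1(ok803) and 49, 41 and 48 in wild type (0.75, SE 0.11, limma adjusted p = 0.00155). For asp-2 they were 125, 97 and 103 in libraries labelled tdp-1(ok803) and 82, 83 and 77 in wild type (0.41, SE 0.10, limma adjusted p = 0.0123). For each of these 5 genes every library labelled tdp-1(ok803) lay above every wild-type library, as for 49.6% of all genes tested. For asp-4 the values were 34, 31 and 30 in libraries labelled tdp-1(ok803) and 36, 31 and 36 in wild type, which overlapped (-0.11, SE 0.10, limma adjusted p = 0.371).

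Of the 4 cathepsin B genes other than cpr-3, 3 rose. The gut protease cpr-1 had 692, 651 and 631 normalized counts in libraries labelled tdp-1(ok803), against 402, 355 and 373 in wild type (log2 fold change 0.80, SE 0.07, limma adjusted p = 0.000236). For cpr-4 the values were 523, 464 and 451 in libraries labelled tdp-1(ok803), against 311, 293 and 301 in wild type (0.66, SE 0.08, limma adjusted p = 0.000505). For cpr-5 they were 66, 58 and 59 in libraries labelled tdp-1(ok803), against 40, 38 and 36 in wild type (0.67, SE 0.08, limma adjusted p = 0.000765). In each of these genes every mutant library lay above every wild-type library, as for 49.6% of all genes tested. The values of cpr-3 were 15, 16 and 15 in libraries labelled tdp-1(ok803) and 5, 7 and 7 in wild type, the wild-type values all under the minimum of 10. For cpr-6 the values were 99, 84 and 75 in libraries labelled tdp-1(ok803) and 85, 74 and 77 in wild type, which overlapped (0.12, SE 0.11, limma adjusted p = 0.402).

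Both astacins in the J2-IP table were near the filter. The values of nas-11 were 23, 26 and 20 in libraries labelled tdp-1(ok803), against 15, 17 and 17 in wild type, without overlap (log2 fold change 0.46, SE 0.12, limma adjusted p = 0.0153). Those of nas-37 were 24, 20 and 23 in libraries labelled tdp-1(ok803), against 22, 21 and 21 in wild type, which overlapped (0.06, SE 0.10, limma adjusted p = 0.648). The other 35 astacins and cpr-2 have no row in the J2-IP table used here.

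**Figure D5:**
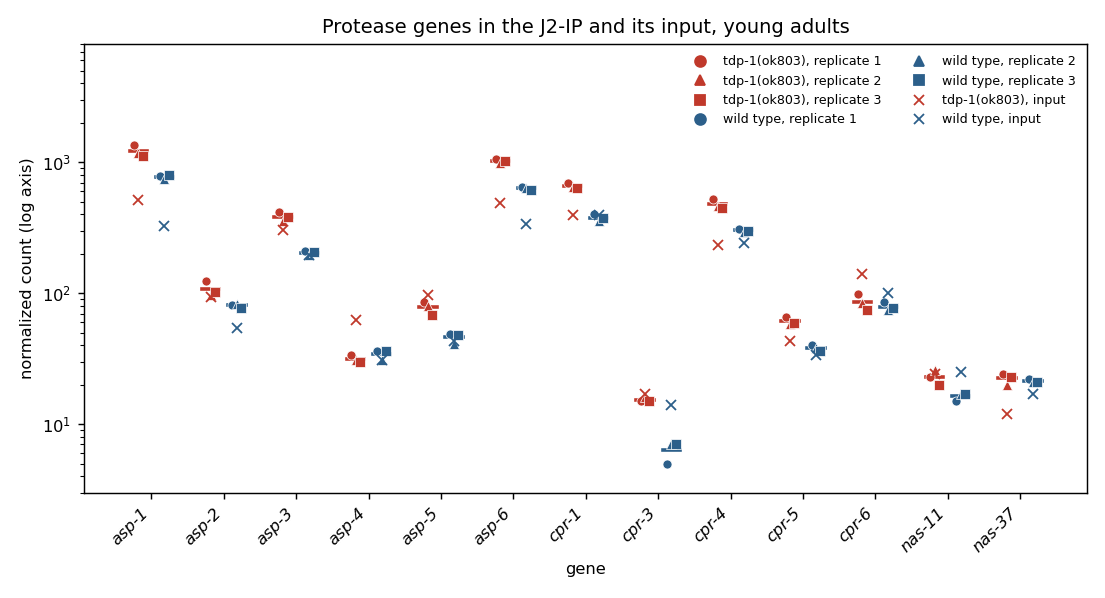
Normalized counts (log axis) of the 13 protease genes in the J2-IP table, tdp-1(ok803) left of wild type for each gene, with marker shape for the replicate number, a bar for the mean of 3 libraries and a cross for the single input library of each genotype. The tdp-1(ok803) points lie above all wild-type points for 10 genes, as for 49.6% of all genes tested, and overlap them for asp-4, cpr-6 and nas-37. The 10 include cpr-3, which reached the filter only through tdp-1(ok803). The tdp-1(ok803) input cross lies above the wild-type cross for all 6 asp genes shown.

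These J2-IP values depend on the scaling of the libraries, whose deposited totals were 1332125 to 1387056 in tdp-1(ok803) and 1046152 to 1065849 in wild type. After median-of-ratios scaling the median log2 fold change of all genes was 0.00, a shift of 0.25, and 24.4% of genes were higher and 24.9% lower. Of the 12 protease genes 7 were then higher, asp-1, asp-3, asp-5, asp-6, cpr-1, cpr-4 and cpr-5, and 1 lower, asp-4. The rises relative to the median gene were 0.38 for asp-1, 0.65 for asp-3, 0.49 for asp-5, 0.43 for asp-6, 0.55 for cpr-1, 0.41 for cpr-4 and 0.42 for cpr-5 on the log2 scale. The value of asp-4 was -0.36 (SE 0.07, limma adjusted p = 0.007), and those of asp-2 (0.16) and nas-11 (0.22) no longer passed. With equal library totals the same 7 genes were higher and asp-4 and nas-37 lower, beside 14.2% of all genes higher and 28.7% lower.

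The input RNA of the same young adults, 1 library per genotype and thus with no replicate check, held more RNA of the 6 asp genes counted here in tdp-1(ok803). Input values were 514 in tdp-1(ok803) and 328 in wild type for asp-1, 490 and 335 for asp-6, 302 and 196 for asp-3, and 94 and 54 for asp-2. They were 97 in tdp-1(ok803) and 43 in wild type for asp-5 and 62 and 31 for asp-4. All 6 asp genes thus had input ratios of 1.46 to 2.26, and 5 of 6 exceeded 1.5. Of the 6453 genes with at least 10 counts in both inputs 21.1% had a ratio above 1 and 6.28% above 1.5. The ratios of the 5 cpr genes ran from 0.967 for cpr-4 to 1.40 for cpr-6, with 0.995 for cpr-1. Those of nas-11 and nas-37 were 0.96 and 0.706, and the median of all genes was 0.86.

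The study normalized the J2-IP to input before comparing genotypes, by a rule that the files do not state. With each mutant J2-IP value multiplied by its gene's input ratio, 11 of the 12 protease genes were higher and 1, nas-37, lower, while 16.4% of genes were higher and 16.4% lower. Under that setting asp-4 (log2 fold change 0.87, SE 0.09, limma adjusted p = 0.000835) and cpr-6 (0.60, SE 0.11, limma adjusted p = 0.00853) were higher too. The SE, adjusted p and counts leave out the error of the ratio, which rests on 1 input library per genotype. Multiplication takes out a per-gene division by input, if the authors made such a division, and does not itself correct for input. With each value divided by that ratio instead, an alternative chosen after seeing the data, 6 of the 12 were higher, asp-3, cpr-1, cpr-4, cpr-5, nas-11 and nas-37, and 4 lower, asp-2, asp-4, asp-5 and cpr-6, while 65.6% of genes were higher and 9.16% lower. The asp genes then had log2 fold changes of -0.0080 for asp-1, -0.38 for asp-2, 0.28 for asp-3, -1.07 for asp-4, -0.40 for asp-5 and 0.14 for asp-6. Counts after division leave out the same error. The direction of asp-1, asp-2, asp-4, asp-5, cpr-6 and nas-37 thus depended on how the input entered. The 6 asp genes had ratios above 1 in the adult input, while 6 of 6 had a poly(A) log2 fold change below 0 in L4 larvae, 0 of them past the threshold. Stage, temperature, RNA selection and library type differ between the 2 assays and cannot be told apart here.

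Markers were also read in the J2-IP beside the protease genes, and their part was not tested. In the same fit 49.8% of all 7058 genes tested were higher and 5.99% lower, with a median log2 fold change of 0.25. Of 13 intestine and lysosome markers tested 12 were higher in tdp-1(ok803) and 0 lower, with a median log2 fold change of 0.45 and summed values of 1029 to 1097 in libraries labelled tdp-1(ok803) and 711 to 778 in wild type. Of 7 molting cycle genes 1 was higher and 5 lower, with a median of -0.23. Of 7 other gut and lysosomal protease genes tested, with the inhibitor gene cpi-2 among them, 2 were higher and 0 lower, with a median of 0.17. Of 14 yolk and oocyte genes 9 were higher and 0 lower. The intestine markers elt-2, elt-7, ges-1 and pho-1 had no row in the J2-IP table used here.

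A further 14 genes carry an asp- or cpr- name in the current RefSeq annotation but stand under sequence names in the tables, and they were not counted among the 49. In poly(A) RNA not all of them shared the replicate 1 pattern. For F28A12.4 the values were 37432, 18226 and 18136 in libraries labelled tdp-1(ok803), against 42249, 20452 and 20492 in wild type. For K10C2.3 they were 37970, 34114 and 33530 in libraries labelled tdp-1(ok803), against 39808, 40625 and 59597 in wild type. The replicate 1 count by the 2-fold limit leaves these 14 genes out. The J2-IP table holds 4 of them. Of these F28A12.4, F57F5.1 and K10C2.3 passed the filter, and all 3 had every library labelled tdp-1(ok803) above every wild-type library, as did 49.6% of all genes tested and 9 of the 12 protease genes counted above. The gene F21F8.4, below the filter, had 9, 8 and 7 in libraries labelled tdp-1(ok803) and 4, 4 and 3 in wild type. Input values went both ways. They were lower in tdp-1(ok803) for F28A12.4 (asp-13), at 20 against 29 in wild type, and F57F5.1 (cpr-9), at 303 against 383. They were higher for F21F8.4 (asp-12), at 20 against 10, and K10C2.3 (asp-14), at 22 against 11.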

How the data were processed

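Groups came from the sample labels alone. The authors aligned reads to WS220, and the submitters' processing notes name TopHat2 2.0.10, Bowtie2 2.1.0, HTSeq 0.5.4p3 and DESeq 1.16 without roles. The poly(A) table deposited by the authors gives each gene a normalized count, a signal on a linear scale. In each library 100% of values were whole multiples of a single step (tolerance 0.01), which gives the reads recovered. The deposited J2-IP and input values are whole-number scores, rounded by the authors after normalization. How they were scaled to input is not stated in the files, and their depth is unknown. The study calls its J2-IP lysates biologically independent. For poly(A) it names 2 independent replicates where 3 are deposited, without saying which, so p-values measure the spread between these samples.

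Genotypes were compared by a limma 3.58.1 trend fit (R 4.3.3) of log2(normalized count + 1) over genes with at least 10 normalized counts in at least 3 of 6 libraries, and p was adjusted over all genes tested. A fold change on this scale understates that of low genes. Alternatives were pseudocount 10, no filter, a minimum of 50, other scalings, edgeR 4.0.16 and DESeq2 1.42.0 on recovered reads, each library left out, replicates 2 and 3 alone, multiplication by the input ratio and, chosen after seeing the data, division by it, a minimum of 1.5-fold over wild-type input, and a replicate block. Across genes, the correlation of same-numbered libraries in their deviations from the genotype means was 0.657, 0.435 and 0.353 (poly(A)) and 0.389, 0.760 and 0.547 (J2-IP), so the numbers were taken to pair the samples. Libraries of different number reached 0.305 and 0.380 (poly(A)) and 0.477 (J2-IP), so a shared number does not always give the highest value. The pairing comes from these values, since the labels name no shared culture.

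Genes described with every library were the 4 highest of each family in each table, those with known roles, and J2-IP genes past the threshold. Poly(A) tests are given for the 6 lowest p, and replicate ratios for the 3 largest of each family. Genes called with replicates 2 and 3 alone, and those counted by a rule, were named after their values were seen. The members and lists were chosen with earlier results of these data known. All 49 names matched RefSeq, which was used for names and neighbours only. Python 3.11.15 with pandas 2.3.3 made the tables. Scripts were tested on simulated data. Editing, total RNA and ChIP files were not used here.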

Additional observations from a re-analysis of the deposited data

Results flagged for a closer look

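For 4 aspartyl protease genes the sign of all 3 replicate pairs differed between L4 poly(A) RNA and the young adult J2-IP. The libraries labelled tdp-1(ok803) were lower than wild type in every poly(A) pair and higher in every J2-IP pair. In poly(A) replicate 1 the log2 ratio was only -0.05 for asp-1 and -0.07 for asp-3, beside -0.37 for asp-2 and -0.16 for asp-6. The J2-IP log2 fold change minus that of poly(A) was 1.18 for asp-1 (0.64 and -0.54), 0.82 for asp-2 (0.41 and -0.41), 1.53 for asp-3 (0.90 and -0.63) and 1.15 for asp-6 (0.69 and -0.46). The difference itself was not tested, and the poly(A) fold changes did not pass the threshold. They shifted when replicate 1 was left out of 1 genotype alone, which unbalances the groups, since replicate 1 was the highest of both genotypes for these genes. Without tdp-1(ok803) replicate 1 they were -1.22 for asp-1, -0.82 for asp-2, -1.03 for asp-3 and -1.09 for asp-6. Without wild-type replicate 1 they were -0.098 for asp-1, -0.022 for asp-2, -0.51 for asp-3 and 0.032 for asp-6. With replicate 1 left out of both genotypes they were -0.78 for asp-1, -0.43 for asp-2, -0.91 for asp-3 and -0.60 for asp-6, and did not pass either. With mutant values divided by the input ratio, the J2-IP log2 fold change was -0.0080 for asp-1 and -0.38 for asp-2. Of all genes 18.2% were lower in every poly(A) pair and 57.4% higher in every J2-IP pair. The share of all genes that met both conditions was not counted. Stage, temperature and assay differ together and cannot be told apart.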

How the results depend on the processing

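In poly(A) RNA the count of 0 protease genes past the threshold held under every alternative run other than replicates 2 and 3 alone, which gave 5. For all genes the count of 0 became 685 with replicates 2 and 3 alone, 17 with DESeq2 and 1 with the replicate block; leaving out any 1 library gave 0 protease genes and 0 genes. DESeq2 gave no p for cpr-1, cpr-4 and cpr-5. With replicates 2 and 3 alone nas-29 (1.15), nas-37 (0.96), cpr-1 (-1.34), cpr-4 (-0.80) and nas-27 (-1.27) passed. With a library left out the log2 fold change of asp-6 ran from -1.09 to 0.032 and that of cpr-4 from -1.64 to 0.31, the values above 0 arising without wild-type replicate 1 and, for cpr-4, also without tdp-1(ok803) replicate 2 (0.098). With replicate 1 left out of both genotypes asp-6 stood at -0.60. Direction and call were kept in 187 of 195 fits of the 13 poly(A) genes whose fold change is given. Among the 187 are the DESeq2 fits of cpr-1 and cpr-4, which kept the direction but gave no p to call.

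In the J2-IP 9 of 12 protease genes passed, with cpr-3 left out because only its tdp-1(ok803) libraries reached the filter. With cpr-3 counted 10 passed, and 9 to 10 with any 1 library left out. The lower count arose where cpr-3 left the filter without a tdp-1(ok803) library. All genes past the threshold numbered 3938, 3381 to 3761 with a library left out, 1994 where enrichment over input was required and 2253 after multiplication by the input ratio. The enrichment filter kept 8 protease genes, 6 of them only through tdp-1(ok803), so their direction is not read. Scaling moved the genes near 0. The log2 fold change of cpr-6 became -0.23 with equal library totals, -0.13 after median-of-ratios scaling and -0.13 after quantile normalization, and that of nas-37 became -0.28, -0.19 and -0.21. After multiplication by the input ratio nas-37 stood at -0.42 and asp-4 at 0.87, and after division by it, chosen after seeing the data, asp-1 stood at -0.0080, asp-2 at -0.38, asp-5 at -0.40 and cpr-6 at -0.36. Under the same 3 scalings asp-2 (0.06 to 0.16) and nas-11 (0.12 to 0.22) no longer passed, and asp-4 (-0.46 to -0.36) did. The cause was not tested. In 162 of 187 fits of the 13 genes direction and call were kept. Of these fits 11 were those of cpr-3, which reached the filter only through tdp-1(ok803). The replicate block changed no call of the 13 genes. Levels per kb and promoter motifs were not run, since no gene lengths or sequences of the files' build were used here. Depth limits cpr-2 and nas-10 in poly(A) RNA, and cpr-3 and the astacins in the J2-IP, all near the filter.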
